A study of Mus musculus with 6 samples.

Results

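Resident macrophage genes were described in the colon of Adamts4 knockout mice (KO) and wild-type mice (WT) after dextran sodium sulfate (DSS). The 10 genes were chosen by symbol as markers of resident gut macrophages and make up 10 of the 21899 genes in the deposited table: the complement chains C1qa, C1qb and C1qc, and Adgre1, Csf1r, Mrc1, Cd163, Mertk, Cx3cr1 and Timd4. The 6 libraries came from colon tissue of 3 KO and 3 WT samples, all given 2.5% DSS for 7 days. Oral DSS damages the lining of the colon and causes colitis, and ADAMTS4 is a secreted protease that cleaves proteoglycans of the extracellular matrix. The comparison asks how colon RNA differs with and without the protease under DSS. Both groups carried the injury, so the KO allele is the only labelled difference between them. The sources used here give no allele, strain, sex, age or litter, and untreated colon was not analysed here.

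Resident macrophages of the gut lie beneath the epithelium, clear dying cells and bacteria, and depend on signalling through the receptor of colony stimulating factor 1. Most of them are renewed from blood monocytes, while some self-maintaining macrophages carry the receptor Tim-4. During colitis, incoming monocytes give rise to inflammatory cells beside them. Several of the 10 genes are shared with other cells: Csf1r and Cx3cr1 with monocytes, Adgre1 with eosinophils, Mrc1 with lymphatic endothelium, and Mertk with epithelial and vascular cells. In whole tissue, fewer macrophages and less RNA per macrophage cannot be told apart.

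Library totals ran from 15786214 to 22932125 counts, and 16333 to 16601 genes had a count in a library. Adamts4 had 0 counts in each KO library, against 900, 992 and 997 in WT 1, WT 2 and WT 3 (edgeR adjusted p = 0.00213). The epithelial marker Epcam stood at 1390 to 1640 CPM (counts scaled to the library total times its TMM factor) in KO and 1200 to 1260 CPM in WT, which fits the labelled tissue. KO 3 stood apart from the other libraries. On principal component 1 of log2 CPM (44.2% of the variance) it scored 58.3, and the other 5 libraries scored -40.7 (WT 3) to 20 (KO 2). Fold changes of the 10 genes and of their partners are therefore given with and without KO 3. Whether each library is a different animal is not stated, and p-values then cover only the spread among these libraries, which may be technical.

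All 10 genes were detected and passed the filter on low counts. None of the 10 was called different between KO and WT by edgeR's quasi-likelihood test at an adjusted p below 0.05, where the background over 14553 genes was 0.158% called in either direction and 0.151% called lower in KO. DESeq2, which called 3.77% of all genes and 2.96% lower, and limma-voom also called 0 of the 10. At an unadjusted p below 0.05, edgeR had 1 gene, lower in KO (C1qa), against 13% of all genes in either direction and 7.85% lower, and DESeq2 had 2 (C1qa and C1qb) against 8.35%. Log2 fold changes were below 0 in 9 of the 10, with a median of -0.78, against 45.8% of all genes below 0 and a median of 0.03. In none of the 10 did the 3 KO values lie wholly below the 3 WT values, as they did in 10.2% of all genes, and KO 1 and KO 2 lay together below all WT values in none, against 14.7% of all genes. The KO libraries differed among themselves: KO 3 held the lowest value of 9 genes, whereas KO 1 lay within the WT range for 9. WT 3 held the highest value of 7 genes. Without KO 3 the median was -0.43, without WT 3 it was -0.40, and without KO 1 it was -1.18.

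**Figure D1:**
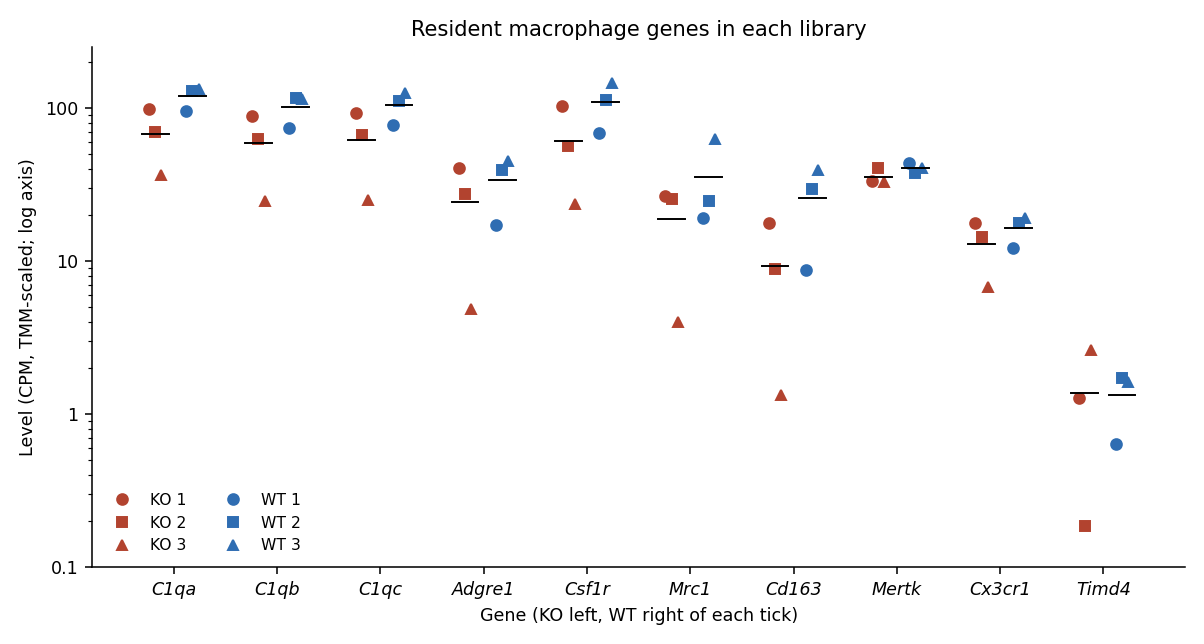
Level of each gene in each library (CPM scaled by TMM factors, log axis), with KO in red left of WT in blue and symbols for the sample number; black bars are group means of 3 libraries. The KO triangle (KO 3) lies lowest for 9 of the 10 genes and highest for Timd4, while Mertk stays between 33.0 and 43.7 CPM.

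The C1q chains had the highest mean levels of the 10 genes per transcript length. They assemble into the recognition unit of the classical complement pathway, which tags dying cells and immune complexes, and macrophages are a main source of them in tissue. C1qa (ENSMUSG00000036887) had 99.1, 69.5 and 36.4 CPM in KO 1, KO 2 and KO 3, against 95.8, 130 and 133 CPM in WT 1, WT 2 and WT 3. C1qb (ENSMUSG00000036905) had 89.2, 62.8 and 24.7 CPM in the KO libraries, against 74.5, 117 and 115 CPM in the WT libraries. C1qc (ENSMUSG00000036896) had 93.0, 67.0 and 25.2 CPM in the KO libraries, against 77.7, 111 and 125 CPM in the WT libraries. For each chain KO 2 and KO 3 lay below every WT library, and KO 1 lay above WT 1, so the groups overlapped. C1qa averaged 68.3 ± 31.4 CPM in KO and 120 ± 20.7 CPM in WT (SD, n = 3 each), and was below the WT mean in all 3 KO libraries. Its log2 fold change was -0.81 ± 0.33 (SE; edgeR adjusted p = 0.357, the smallest of the 10). The log2 fold changes of C1qb and C1qc were -0.80 ± 0.41 and -0.76 ± 0.41, with edgeR adjusted p of 0.450 and 0.475. Without KO 3 they stood at -0.50 for C1qa, -0.43 for C1qb and -0.38 for C1qc.

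The 3 chains kept the same order of levels in all libraries. The genes lie side by side on the minus strand of chromosome 4, within 18675 bases (136880129 to 136898803, GENCODE M21 on GRCm38), in the order C1qb, C1qc and C1qa. In TPM, the authors' level per transcript length, C1qa exceeded C1qb and C1qb exceeded C1qc in all 6 libraries. Of their summed TPM, C1qa took 37.4%, 37.1% and 44.5% in KO 1, KO 2 and KO 3, against 40.9%, 38.4% and 37.9% in WT 1, WT 2 and WT 3. KO 3, with the lowest summed level of 128 TPM against 345 to 613 TPM in the other 5 libraries, also had the highest share of C1qa.

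RefSeq promoter windows were matched for 7 of the 10 genes (C1qb, C1qc, Mrc1, Cd163, Mertk, Cx3cr1 and Timd4). Those of 5 genes are printed as examples of members whose levels varied together (C1qb, C1qc, Mrc1, Cd163) and of the member with the smallest spread (Mertk), and the motifs of all 7 are given. Each line gives the 250 bases before the start, 5′ to 3′ on the gene's strand, with capitals for GAGGAA, the core of the box bound by the macrophage factor PU.1, and for TGCTGA, the half-site of MAF factors, on either strand (TTCCTC and TCAGCA on the other).
C1qb: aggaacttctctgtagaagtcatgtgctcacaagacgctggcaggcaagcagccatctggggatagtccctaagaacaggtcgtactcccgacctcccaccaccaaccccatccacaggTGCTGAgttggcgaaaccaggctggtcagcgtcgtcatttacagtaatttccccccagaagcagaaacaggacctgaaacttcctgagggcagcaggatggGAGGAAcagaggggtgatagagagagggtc
C1qc: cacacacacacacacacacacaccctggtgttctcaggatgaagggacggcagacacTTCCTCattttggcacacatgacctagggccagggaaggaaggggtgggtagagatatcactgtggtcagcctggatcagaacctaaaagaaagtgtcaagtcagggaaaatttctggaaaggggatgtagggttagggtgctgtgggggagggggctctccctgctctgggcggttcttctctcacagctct
Mrc1: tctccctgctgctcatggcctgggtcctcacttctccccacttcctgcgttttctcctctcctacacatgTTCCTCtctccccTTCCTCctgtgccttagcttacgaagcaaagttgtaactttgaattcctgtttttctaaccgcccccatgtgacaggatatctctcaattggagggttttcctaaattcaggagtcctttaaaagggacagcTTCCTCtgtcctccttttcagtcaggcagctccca
Cd163: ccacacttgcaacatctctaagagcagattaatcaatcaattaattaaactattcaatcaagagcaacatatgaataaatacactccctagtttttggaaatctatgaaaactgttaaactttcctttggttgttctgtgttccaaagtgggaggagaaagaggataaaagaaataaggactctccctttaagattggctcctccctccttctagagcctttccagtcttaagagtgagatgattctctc
Mertk: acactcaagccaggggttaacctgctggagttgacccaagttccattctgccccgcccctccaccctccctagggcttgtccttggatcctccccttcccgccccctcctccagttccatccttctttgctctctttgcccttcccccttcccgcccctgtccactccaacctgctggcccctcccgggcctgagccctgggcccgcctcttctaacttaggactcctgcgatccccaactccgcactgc
On GRCm38.p6 these windows are chr4:136886201-136886450 (minus strand) for C1qb, chr4:136892915-136893164 (minus) for C1qc, chr2:14229164-14229413 (plus) for Mrc1, chr6:124304401-124304650 (plus) for Cd163 and chr2:128698665-128698914 (plus) for Mertk. C1qb held GAGGAA beginning 30 bases and TGCTGA beginning 131 bases before the start, and C1qc held GAGGAA on the other strand, 193 bases before it. Mrc1 held GAGGAA 3 times, at 180, 167 and 35 bases before the start and always on the other strand, whereas the windows of Cd163, Mertk and Cx3cr1 held neither motif. Timd4 held TGCTGA at 150 and 44 bases before the start, on the other strand. The start is that of RefSeq and can differ from the GENCODE M21 start. The windows of C1qc and Mrc1 lie partly, and that of Cx3cr1 wholly, inside the GENCODE M21 span of the gene. Of 32851 RefSeq promoter windows of the same length, 23.3% held GAGGAA and 16.1% held TGCTGA. Cd163 and Cx3cr1, whose levels varied with the C1q genes, had no match in this window, and Timd4, whose level did not, had 2 of TGCTGA. The windows with GAGGAA were those of C1qb, C1qc and Mrc1, whose levels varied together, and Mertk and Timd4 had no GAGGAA. A link between matches and levels was not tested. The Mertk window had the highest share of G and C of the 7, 63.6%, and that of Cd163 the lowest, 36.8%, with a median of 52.4% over all windows.

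Csf1r and Cx3cr1 are receptors that tie macrophages to signals from their surroundings. Csf1r (ENSMUSG00000024621) encodes the receptor for the growth factors CSF1 and interleukin 34, on which most tissue macrophages depend. It had 103, 56.3 and 23.6 CPM in KO 1, KO 2 and KO 3, against 68.4, 114 and 147 CPM in WT 1, WT 2 and WT 3. The values overlapped because KO 1 exceeded WT 1, and the log2 fold change was -0.85 ± 0.49 (SE; edgeR adjusted p = 0.5), or -0.46 without KO 3. The authors' deposited table gives a larger change for Csf1r, a log2 fold change of -1.34, which is the ratio of mean TPM. The number of counts per TPM, scaled for each library, is the same in all libraries where 1 gene length was used. For Csf1r it differed 2.14-fold between libraries and was lowest in WT 3 and WT 2, at 46.7% and 49.1% of the value in WT 1. The median spread over 11390 genes was 1.04-fold, and only 0.702% of them had a wider spread than Csf1r. The C1q chains, Mrc1 and Mertk had the same counts per TPM in all libraries, a ratio of 1 between the highest and the lowest. The Csf1r fold change from counts and that from TPM thus rest on different scalings between libraries, and its TPM levels share that limit.

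Cx3cr1 (ENSMUSG00000052336), the receptor for fractalkine, helps macrophages extend processes toward the gut lumen. It had 17.7, 14.4 and 6.82 CPM in the KO libraries, against 12.3, 17.8 and 19.2 CPM in the WT libraries. KO 3 was low and the other 5 libraries overlapped, giving a log2 fold change of -0.34 ± 0.35 (SE; edgeR adjusted p = 0.722), or -0.03 without KO 3. Relative to the C1q chains of the same library, its order was different. The log2 ratio of Cx3cr1 CPM to the geometric mean of the C1q chains was -2.40, -2.20 and -2.05 in KO 1, KO 2 and KO 3, against -2.74, -2.75 and -2.69 in WT 1, WT 2 and WT 3. All 3 KO ratios lay above all 3 WT ratios, as did those of 27.1% of all genes, whereas 1.31% lay below in all 3. For the other 6 members outside the C1q chains the ratios overlapped between KO and WT.

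The scavenger and adhesion receptors ranged widely, with the highest library 29.5-fold above the lowest for Cd163, 15.6-fold for Mrc1 and 9.32-fold for Adgre1, against 14.1-fold for Timd4. Cd163 (ENSMUSG00000008845) encodes a macrophage scavenger receptor for haemoglobin. It had 17.9, 8.92 and 1.34 CPM in KO 1, KO 2 and KO 3, against 8.81, 29.5 and 39.6 CPM in WT 1, WT 2 and WT 3. KO 3, with 25 counts, was the lowest library, and WT 1 lay beside KO 2. The log2 fold change of -1.46 ± 0.80 (SE; edgeR adjusted p = 0.479) was the most negative of the 10 and went to -0.95 without KO 3 and -2.35 without KO 1. Mrc1 (ENSMUSG00000026712), the mannose receptor CD206, had 26.8, 25.7 and 4.03 CPM in the KO libraries, against 19.1, 24.8 and 62.8 CPM in the WT libraries. KO 3 was low and WT 3 high, while the other 4 libraries lay between 19.1 and 26.8 CPM. Its log2 fold change was -0.92 ± 0.68 (edgeR adjusted p = 0.610), and leaving out KO 3 gave -0.44, or WT 3 -0.22. Adgre1 (ENSMUSG00000004730), which encodes the F4/80 antigen, had 40.5, 27.4 and 4.88 CPM in the KO libraries, against 17.2, 39.5 and 45.5 CPM in the WT libraries. Only KO 3 lay below the WT range, and the log2 fold change of -0.49 ± 0.65 (edgeR adjusted p = 0.792) became 0.00 without it.

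The receptors for dying cells, Mertk and Timd4, did not follow the others. Mertk (ENSMUSG00000014361), a receptor tyrosine kinase that drives uptake of apoptotic cells, had 33.5, 40.8 and 33.0 CPM in KO 1, KO 2 and KO 3, against 43.7, 37.9 and 40.8 CPM in WT 1, WT 2 and WT 3. Its spread was the smallest, 1.32-fold between the highest and lowest library, and the log2 fold change was -0.19 ± 0.15 (SE; edgeR adjusted p = 0.645), or -0.13 without KO 3. In KO 3, where the C1q chains stood at 24.1% to 30.4% of their WT means, Mertk stood at 80.9%. Timd4 (ENSMUSG00000055546), which encodes the phosphatidylserine receptor Tim-4, was near the detection limit, with 25, 3 and 49 counts in the KO libraries against 15, 34 and 29 counts in the WT libraries. KO 3 was the highest library for Timd4 and KO 2 the lowest, so the KO values enclosed the WT values. Its log2 fold change was 0.06 ± 0.76 (edgeR adjusted p = 0.982), or -0.81 without KO 3, so no direction can be given.

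**Figure D2:**
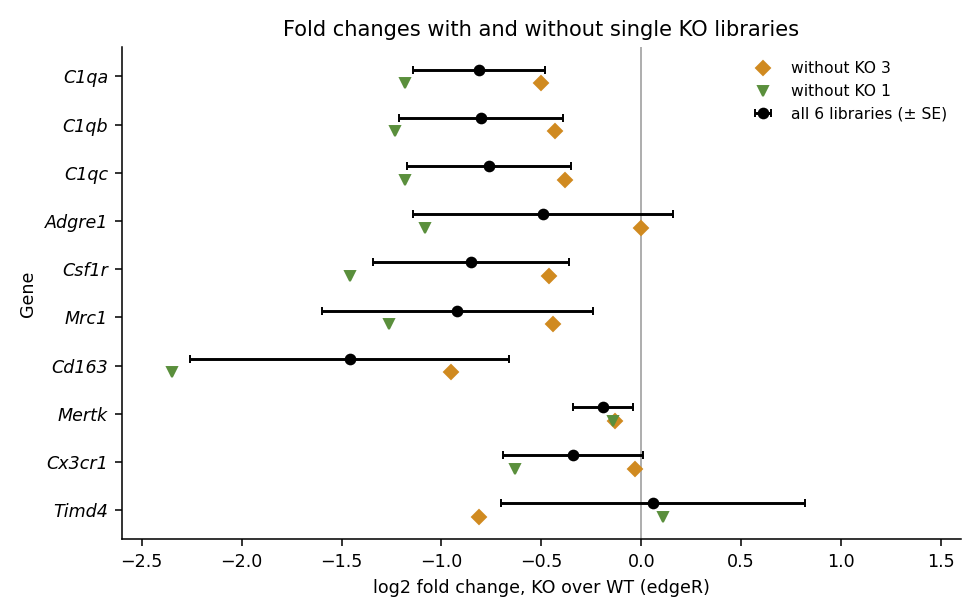
Log2 fold change of each gene, KO over WT (edgeR), with all 6 libraries (black, bars are ± 1 SE), without KO 3 (orange) and without KO 1 (green). Values without KO 3 lie nearer 0 for 9 of the 10 genes, with Adgre1 at 0.00, and Timd4 changes sign.

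Across the 6 libraries, 8 of the 10 genes varied together. Among the C1q chains, Adgre1, Csf1r, Mrc1, Cd163 and Cx3cr1, Pearson's r of log2 CPM between any pair lay between 0.89 and 1. With the mean of the C1q chains, Csf1r and Cd163 each had an r of 0.98 and Cx3cr1 0.96, against 0.47 for Mertk and -0.18 for Timd4. These 8 were grouped after their values were seen, the points are 6 libraries shared by all genes, and KO 3 is the low extreme of each of the 8. Amplitudes differed: in KO 3 the level was 41.5% of the WT mean for Cx3cr1, 30.4% for C1qa, 21.5% for Csf1r, 14.3% for Adgre1, 11.3% for Mrc1 and 5.16% for Cd163. WT 1 was the lowest WT library for 9 of the 10 genes, and the level in KO 1 exceeded that in WT 1 for 9.

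**Figure D3:**
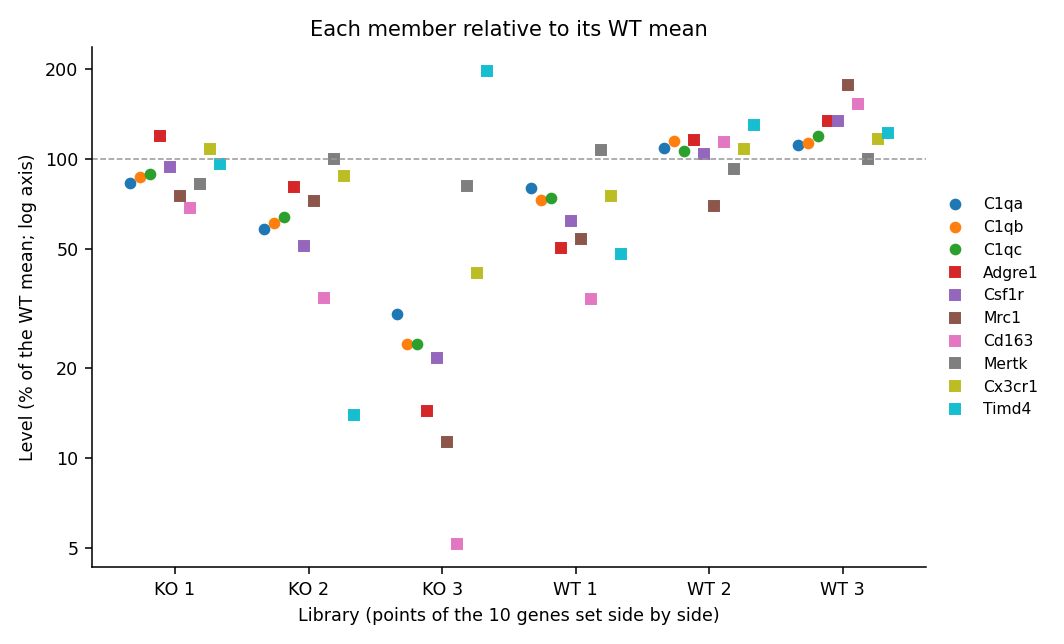
Each gene as a percentage of its WT mean in each library (log axis; circles are the C1q chains, squares the other 7 genes, the dashed line is the WT mean). In KO 3 the genes spread from 5.16% (Cd163) to 197% (Timd4), with Mertk at 80.9%.

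By the rule for likeness, the 5 genes closest to the mean of the C1q chains over the 6 libraries were Rhobtb1 (r = 0.9988), the matricellular gene Ccn2 (0.9968), Daam2 (0.9941), Glg1 (0.9941) and Clec4a3 (0.9939), a C-type lectin gene of myeloid cells. Clec4a3 had 6.83, 4.4 and 1.61 CPM in the KO libraries, against 5.56, 10.2 and 10.6 CPM in the WT libraries. An r above 0.9 was found for 645 of 14128 ranked genes.

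Per length, the order of mean TPM in WT was C1qa, C1qb, C1qc, Csf1r, Adgre1, Mertk, Mrc1, Cd163, Cx3cr1 and Timd4. C1qa averaged 118 ± 56.9 TPM in KO and 212 ± 37.4 TPM in WT (SD, n = 3 each), and Cx3cr1 6.55 ± 3.13 TPM in KO and 8.82 ± 2.30 TPM in WT. In WT the ranges of neighbours in this order overlapped, apart from 2 steps. Csf1r, at 34.3 to 157 TPM in WT, lay above Adgre1, at 9.73 to 25.6 TPM, and Timd4, at 0.541 to 1.5 TPM, lay below Cx3cr1, at 6.17 to 10.3 TPM. In KO the order of mean TPM was C1qa, C1qb, C1qc, Csf1r, Mertk, Adgre1, Cx3cr1, Mrc1, Cd163 and Timd4, and the ranges of all neighbours in it overlapped.

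Of 14 ligands and partners of the 10 gene products, none was called by edgeR, 9 were lower in KO at an unadjusted p below 0.05 (7.85% of all genes), and 13 had a log2 fold change below 0. In 9 of the 14 all KO values lay below all WT values (10.2% of all genes), the median log2 fold change was -0.88, and DESeq2 called 4 lower (2.96% of all genes), or 5 without KO 3 (2.54% of all genes). Haptoglobin (Hp), which binds free haemoglobin, had 42.2, 15.2 and 29.1 CPM in KO 1, KO 2 and KO 3, against 121, 107 and 286 CPM in WT 1, WT 2 and WT 3. Its log2 fold change was -2.57 ± 0.47 (SE; edgeR adjusted p = 0.0848, DESeq2 adjusted p = 1.88e-07) and -2.58 without KO 3. Hmox1, which encodes a haem-degrading enzyme, had a log2 fold change of -0.90 ± 0.24 (edgeR adjusted p = 0.191, DESeq2 adjusted p = 0.0225), or -0.97 without KO 3. Among the proteases that dock on C1q, C1s1 stood at -1.26 ± 0.33 (edgeR adjusted p = 0.187, DESeq2 adjusted p = 0.00641) and C1ra at -1.18 ± 0.43 (edgeR adjusted p = 0.313, DESeq2 adjusted p = 0.0705). Without KO 3 they stood at -0.93 and -0.79. Serping1, which encodes the inhibitor of those proteases, had a log2 fold change of -1.18 ± 0.33 (edgeR adjusted p = 0.207, DESeq2 adjusted p = 0.0104), or -0.88 without KO 3.

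Of the ligands of CSF1R, Il34 had 11.8, 8.05 and 7.51 CPM in KO 1, KO 2 and KO 3, against 18.7, 13.4 and 15.7 CPM in WT 1, WT 2 and WT 3. The groups did not overlap, with a log2 fold change of -0.80 ± 0.24 (SE; edgeR adjusted p = 0.230), or -0.68 without KO 3. Csf1, which encodes the other ligand, overlapped and stood at -0.37 ± 0.34 (edgeR adjusted p = 0.689), or -0.07 without KO 3. Among partners of Mertk, the ligand gene Pros1 stood at -0.86 ± 0.32 and the sister kinase gene Axl at -0.90 ± 0.33, both without overlap, while the ligand gene Gas6 stood at -0.09 ± 0.18. Without KO 3 these were -0.56, -0.58 and -0.13. Tyro3, the third kinase of that family, was higher in KO in all 3 libraries, with a log2 fold change of 0.37 ± 0.18 (edgeR adjusted p = 0.425; 9.35% of all genes had every KO value above every WT value), or 0.42 without KO 3. Cx3cl1, the ligand of CX3CR1, had 136, 101 and 116 CPM in the KO libraries against 133, 130 and 119 CPM in the WT libraries, a log2 fold change of -0.11 ± 0.15, or -0.10 without KO 3. Havcr2, a relative of Timd4, stood at -1.03 ± 0.40 without overlap, and the shedding protease gene Adam17 at -0.03 ± 0.17. Without KO 3 they stood at -0.76 and 0.03.

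Of 35 other macrophage genes 33 were tested, 32 with a log2 fold change below 0 and a median of -0.50, which was -0.34 without KO 3 and -0.79 without KO 1. None was called by edgeR, and 8 were lower at an unadjusted p below 0.05 (7.85% of all genes). DESeq2 called 4 lower (2.96% of all genes), or 3 without KO 3 (2.54%), and in 8 all KO values lay below all WT values (10.2%). The smallest p belonged to Lgmn, the lysosomal protease legumain, at -0.80 ± 0.18 (SE; edgeR adjusted p = 0.136), followed by the lectin gene Clec10a at -1.81 ± 0.50 and by Apoe at -1.21 ± 0.35. Apoe had 615, 410 and 223 CPM in KO 1, KO 2 and KO 3, against 774, 997 and 1110 CPM in WT 1, WT 2 and WT 3. DESeq2 called Lgmn, Clec10a, Apoe and the Fc receptor gene Fcgr3 (-1.35 ± 0.45, DESeq2 adjusted p = 0.0365) lower. Without KO 3 the log2 fold changes were -0.68 for Lgmn, -1.56 for Clec10a, -0.91 for Apoe and -0.94 for Fcgr3. Pan-macrophage Cd68 had 27.7, 17.0 and 5.58 CPM in the KO libraries, against 21.9, 32.4 and 45.0 CPM in the WT libraries, and the groups overlapped. Cd68 and Fcgr3 were chosen after their values were seen.

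Markers of fibroblasts and of blood and lymphatic endothelium were also low in KO 3. In KO 3 the median gene of the 10 stood at 24.1% of its WT mean, and that of 10 fibroblast, 10 blood endothelial and 7 lymphatic endothelial markers at 21.8%, 27.9% and 22.2%. In KO 1 the same medians were 88.0% for the macrophage genes, 101% for fibroblast, 88.6% for blood endothelial and 81.2% for lymphatic endothelial markers. Summed levels of the fibroblast markers ran from 756 to 4500 CPM in KO and 2520 to 4950 CPM in WT, those of blood endothelium from 135 to 418 CPM in KO and 471 to 543 CPM in WT, and those of lymphatic endothelium from 120 to 257 CPM in KO and 226 to 365 CPM in WT. No marker of these 3 lists was at 0 in any library. Also low in KO 3 were recruited monocyte markers at 23.3%, eosinophil and mast cell markers at 14.5% and neutrophil markers at 7.18%. Epithelial markers stood at 134%, T and NK cell markers at 134% and smooth muscle and enteric nerve markers at 132% in KO 3, and all genes tested at 100%. The part of these cell types in the values of the macrophage genes was not tested.

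Recruited monocyte markers had a median log2 fold change of -1.17 (-1.06 without KO 3), with 5 of 12 called lower by DESeq2 (2.96% of all genes), or 4 without KO 3 (2.54%), led by Chil3 (-4.03 ± 0.62), Thbs1 (-1.84 ± 0.29) and F10 (-2.45 ± 0.43). Chil3, a lectin gene of monocytes and neutrophils, had 4.88, 1.18 and 1.56 CPM in KO 1, KO 2 and KO 3, against 69.4, 33.0 and 23.5 CPM in WT 1, WT 2 and WT 3 (edgeR adjusted p = 0.0595). Of the neutrophil markers 9 were tested, with a median of -2.78 (-2.45 without KO 3) and 7 called lower by DESeq2, or 6 without KO 3, against the same shares of all genes, led by Mmp8 (-4.16 ± 0.64), Ltf (-2.59 ± 0.46) and Ngp, which had 1, 0 and 0 counts in the KO libraries against 591, 162 and 20 counts in the WT libraries. In 7 of these 9 genes the groups did not overlap, against 0 of the 10 resident macrophage genes and 10.2% of all genes lying lower in KO, a difference that was not tested. edgeR called none of either list, with 6 monocyte and 8 neutrophil markers lower at an unadjusted p below 0.05 (7.85% of all genes). Without the filter on low counts it called 2 of each, with 69 calls over all genes against 23 in the main fit. With the replicate number as a block it called 4 monocyte and 5 neutrophil markers, with 81 calls over all genes. The labels do not say that this number pairs the samples.

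edgeR called no gene of the other 9 lists, and the genes named below are the 3 of each list with the smallest p. Of all genes, 7.85% were lower and 5.17% higher at an unadjusted edgeR p below 0.05. DESeq2 called 2.96% lower and 0.804% higher, and without KO 3 it called 2.54% lower and 0.776% higher. Dendritic cell markers had a median log2 fold change of -0.41 (2 of 9 lower at an unadjusted edgeR p below 0.05, 1 called lower by DESeq2, 0 without KO 3), with Itgae, Irf4 and Zbtb46 at -1.17, -1.17 and -0.52. Eosinophil and mast cell markers had a median of -0.87 (3 of 7 lower at that p, 2 called lower, 1 without KO 3). Of these, Prg2 stood at -2.70, while Mcpt2 and Mcpt1, at -2.81 and -2.63, rested on WT 2 and stood at -1.28 and -0.64 without it. B and plasma cell markers stood at -0.42 (3 of 10 lower at that p, 2 called lower, 5 without KO 3), with Mzb1, Jchain and Derl3 at -1.92, -1.86 and -1.63. T and NK cell markers stood at -0.25 (2 of 10 lower at that p, 1 called lower, 2 without KO 3), with Gzma, Foxp3 and Cd3e at -2.12, -1.18 and -0.44. In the T and NK cell list, as in the B and plasma cell list, 8 genes had a log2 fold change below 0 and 2 above it. The lymphocyte medians depended on single libraries: for B and plasma cells they were -1.40 without KO 3, -0.14 without KO 1 and -0.13 without KO 2, and for T and NK cells -0.84 without KO 3 and 0.04 without KO 1.

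Fibroblast markers stood at -0.68 (4 of 10 lower at an unadjusted edgeR p below 0.05, 0 called by DESeq2 with or without KO 3), with Dcn, Dpt and Pdgfrb at -1.17, -0.67 and -0.77. Blood endothelial markers stood at -0.77 (2 of 10 lower at that p, 1 called lower, 1 without KO 3), with Pecam1, Vwf and Eng at -0.99, -1.09 and -0.76. Lymphatic endothelial markers stood at -0.59 (1 of 7 lower at that p, 1 called lower, 1 without KO 3), with Pdpn, Ccl21a and Lyve1 at -1.26, -0.39 and -0.66. Without KO 3 the medians were -0.28 for fibroblast, -0.45 for blood endothelial, -0.23 for lymphatic endothelial and -0.29 for eosinophil and mast cell markers. Without KO 1 they were -1.16 for fibroblast, -1.19 for blood endothelial and -2.28 for eosinophil and mast cell markers, and without KO 2 the lymphatic endothelial median was -1.10. Epithelial markers stood at 0.29 (2 of 12 higher at that p, 1 called higher, 1 without KO 3), with Lgr5, Aqp8 and Muc2 at 2.25, 0.91 and 0.54, and their median was 0.12 without KO 3. Smooth muscle and enteric nerve markers stood at 0.26 (4 of 10 higher and 2 lower at that p, 3 called higher, 2 without KO 3), with Actg2, Des and Tubb3 at 1.19, 0.95 and -0.72. That median was 0.41 without KO 1 and 0.17 without KO 2.

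**Figure D4:**
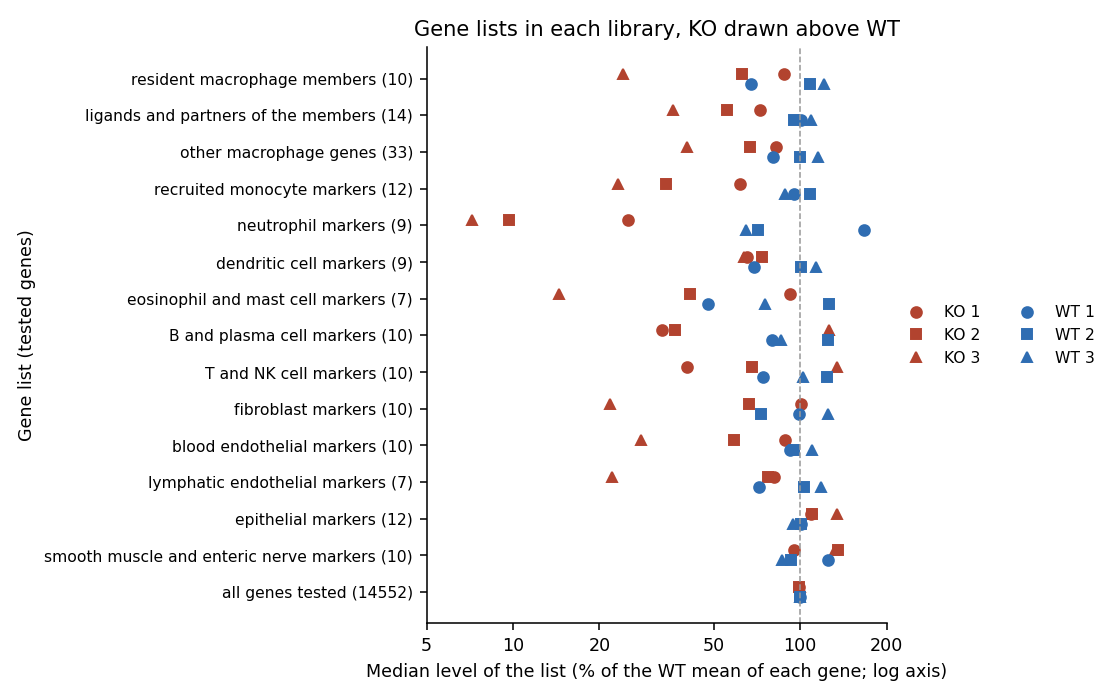
Median over the tested genes of each list of the level as a percentage of each gene's WT mean, per library (log axis; KO in red drawn above WT in blue). The resident macrophage, fibroblast and endothelial lists have KO 3 at 21.8% to 27.9% and KO 1 at 81.2% to 101%, while the neutrophil list has all 3 KO libraries at 7.18% to 25.1%.

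On GRCm38 (GENCODE M21) the other genes lie apart from each other: Adgre1 on chromosome 17 (57358691 to 57483527), Csf1r on 18 (61100598 to 61132149), Mrc1 on 2 (14229392 to 14332057) and Cd163 on 6 (124304656 to 124330527). Mertk lies on chromosome 2 (128698956 to 128802894), Cx3cr1 on 9 (119901616 to 120069879) and Timd4 on 11 (46810800 to 46844332). Some share their position with other genes, and whether reads were counted by strand is not given in the sources used here. On GENCODE M21, Csf1r overlaps the coding gene Hmgxb3 on the opposite strand and the microRNA gene Mir6983, and Mrc1 overlaps the microRNA gene Mir511. Mertk overlaps an antisense transcript and the small nucleolar RNA gene Gm23172. Cx3cr1 spans 168264 bases and overlaps 9 other annotated genes. These overlaps are of whole gene spans, introns included, and whether reads of those pairs can be told apart was not examined. No annotated gene overlaps the C1q chains, Adgre1, Cd163 or Timd4.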

How the data were processed

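Colon RNA libraries of 3 KO and 3 WT samples were made, per the labels' protocols, with a SMARTER mRNA-Seq kit after Trizol extraction of total RNA. GRCm38, mm10 and mm39 are named in the submitters' processing notes without a role; no aligner, counter or annotation is given in the sources used here. Read counts per gene are whole numbers and were used as deposited. TPM values (levels per transcript length) are the authors' and served for levels between genes and for 2 alternatives. The deposited log2 fold change is the ratio of the authors' mean TPM, and the deposited p-value comes from the authors' unnamed test.

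The main test was edgeR 4.0.16 (R 4.3.3; TMM factors, default expression filter, quasi-likelihood F-test), fitted on all 14553 genes that passed, with Benjamini-Hochberg adjustment over all of them and a threshold of 0.05. Its common dispersion was 0.084. Standard errors were derived from the F statistic. CPM values are scaled by TMM factors. The 10 genes, 13 other gene lists and tests were chosen with earlier results of these data known. Named were all 10 genes, every partner gene, the 3 genes of each other list with the smallest p (and any called, of which there were 0), and the 5 genes most like C1q. Same-numbered KO and WT samples did not deviate together (r = -0.481, -0.182 and -0.496). The procedure was tested on simulated data. Alternatives were median-ratio and upper-quartile factors, DESeq2 1.42.0, limma 3.58.1 (voom, and log2(TPM + 1) and log2(TPM + 0.1)), other filters (any count, or at least 1 CPM in 3 libraries), the replicate number as a block and leaving out each library. DESeq2 without KO 3 was added after seeing the data. Positions are from GENCODE M21 (GRCm38) and promoters from RefSeq (GRCm38.p6).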

Additional observations from a re-analysis of the deposited data

How the results depend on the processing

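None of the 10 genes was called under any of the 16 alternatives, where the lowest adjusted p was 0.13 (edgeR, C1qa, without KO 1), and 7 of 160 alternative fold changes of single genes reversed. Adgre1 had none (0.00) without KO 3 in edgeR and in DESeq2. The 7 were all Timd4, at -0.35 with limma-voom, -0.18 with the replicate block, -0.12 and -0.41 with limma on log2(TPM + 1) and log2(TPM + 0.1), -0.84 with DESeq2 without KO 3, and -0.81 and -0.29 without KO 3 or WT 1, within a range of -0.81 to 0.56 over the 6 fits that left out a library; the cause was not tested. The median of the 10 genes ran from -1.18 (without KO 1) to -0.40 (without WT 3) when a library was left out, with -0.43 in DESeq2 without KO 3. Under the alternatives that kept all 6 libraries it ran from -0.97 to -0.78.

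Over all genes, 23 calls in edgeR became 9 with median-ratio factors, 39 with upper-quartile factors, 548 in DESeq2, 483 in DESeq2 without KO 3, 69 without a count filter, 58 and 3 with limma on log2(TPM + 1) and log2(TPM + 0.1), and 1 to 29 when a library was left out. The replicate number as a block gave 81, but the labels do not say that the numbers pair the samples. No KO library correlated best with the WT library of its own number. With 3 libraries in each group these correlations cannot decide whether samples were paired. Among the other lists, edgeR called up to 2 monocyte, 2 neutrophil and 1 T and NK cell marker under another scaling or filter or without a library, and with the block 4 monocyte, 5 neutrophil and 1 partner gene; limma on log2(TPM + 1) called 1 each of the monocyte, neutrophil, eosinophil and mast cell, and T and NK cell markers. Timd4, with 3 to 49 counts, is the gene that depth limits most.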
